A study of Oryza sativa with 45 samples.

Results

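Rice beta-glucosidases of the BGLU family were followed on whole-seedling arrays in 3 rice lines, over 3 generations and under salt. The family was taken as all genes whose rice reference symbol or synonym is BGLU followed by a number, with or without an Os prefix, and which are the single gene of a probe set. This gave 31 genes on 11 chromosomes, each with 1 probe set, among 54922 probe sets in all. Members are called by their family number (BGLU30 is also listed as Os9bglu30). BGLU7 also bears the older name BGLU1, which here stands only for Os1bglu1.

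Beta-glucosidases of this family (glycoside hydrolase family 1) split glucose from small molecules that the plant stores as glucosides. Their known substrates in plants include conjugates of hormones, defence compounds, building blocks of lignin and short sugar chains of the cell wall. Because a glucoside is often the inactive or transport form of a hormone, some of these enzymes are studied for their part in hormone release under salt and drought, and a few members transfer glucose between molecules or rebuild chloroplast lipids instead.

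The arrays were Affymetrix RUSGene 1.1 ST arrays, and each held the RNA of 1 pool of 10 whole seedlings of cv. Nipponbare (Oryza sativa ssp. japonica), 15 days old. The control line C was raised from seed, without culture or transformation. Line Ta carries ICE1, a rice transcription factor gene of the cold response fused to a purification tag, driven by the maize ubiquitin promoter, plus a hygromycin resistance gene, and descends from 1 transformation event. NSb is a negative segregant, a line that went through culture and transformation but lost the transgene by segregation, and it descends from another event than Ta. C, Ta and NSb were each sampled as 3 pools in generations F4, F6 and F8 without salt. In F6 each line was also grown at 12 dS per m of salt for 12 days, and in F8 each line was also sampled as unstressed seedlings whose F6 ancestors had grown in salt (salt history), which makes 15 conditions and 45 arrays (n = 3 pools in each condition). Ta and NSb are 1 event each, so a difference between them or from C cannot be told apart from a property of that event. In whole seedlings, fewer cells of a type and less RNA per cell cannot be told apart either.

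Signals are given on the log2 scale as deposited, and "log2" beside a difference means a difference of such signals. The arrays of F6 had medians of 4.142 to 4.223, those of F4 4.461 to 4.504 and those of F8 4.53 to 4.581, and signals were therefore set against each other only inside a generation. A difference was called when its adjusted p in limma (Benjamini-Hochberg, over all 54922 probe sets) was under 0.05. The targeted genes followed the labels, as Ta exceeded C by 3.58 to 3.84 log2 in the ICE1 probe set and by 7.42 to 7.74 in that of the hygromycin gene, while in NSb both differed from C by at most 0.39. Pools of 1 condition correlated with r between 0.9746 and 0.9911. The third F6 pool of C without salt stood apart, with signals of 7 BGLU members (BGLU1, BGLU12, BGLU16, BGLU19, BGLU24, BGLU31 and BGLU36) more than 0.5 log2 from the mean of the other 2 pools, and the salt differences of these members are given with and without it. Of the 31 members, 19 lay above the median of every array, 3 (BGLU14, BGLU21 and BGLU38) lay under it on every array, and 9 were mixed. A signal under the median may be background, and a difference that involves it is likely to be understated.

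Salt moved the family in both directions, and BGLU30 by far more than any other member. Averaged over the 3 lines, 12 of the 31 members were higher under salt, where 15.2% of all probe sets were, and 10 were lower, where 11.7% were. Over probe sets with 1 annotated gene, 39.8% were called in either direction. The median size of the salt difference was 0.46 log2 over the members, 0.12 over all probe sets and 0.14 over those with 1 gene, while the median signed difference of the members was 0.08. The 22 members called had the same sign in all 3 lines, as did 95.7% of all probe sets called. All but 3 of them stayed under 2-fold, the exceptions being BGLU30, BGLU5 and BGLU26, which were higher. Of the other 9 members, none differed by more than 0.13 log2 on average. Without the third C pool 20 members were called (29.0% of probe sets).

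**Figure D1:**
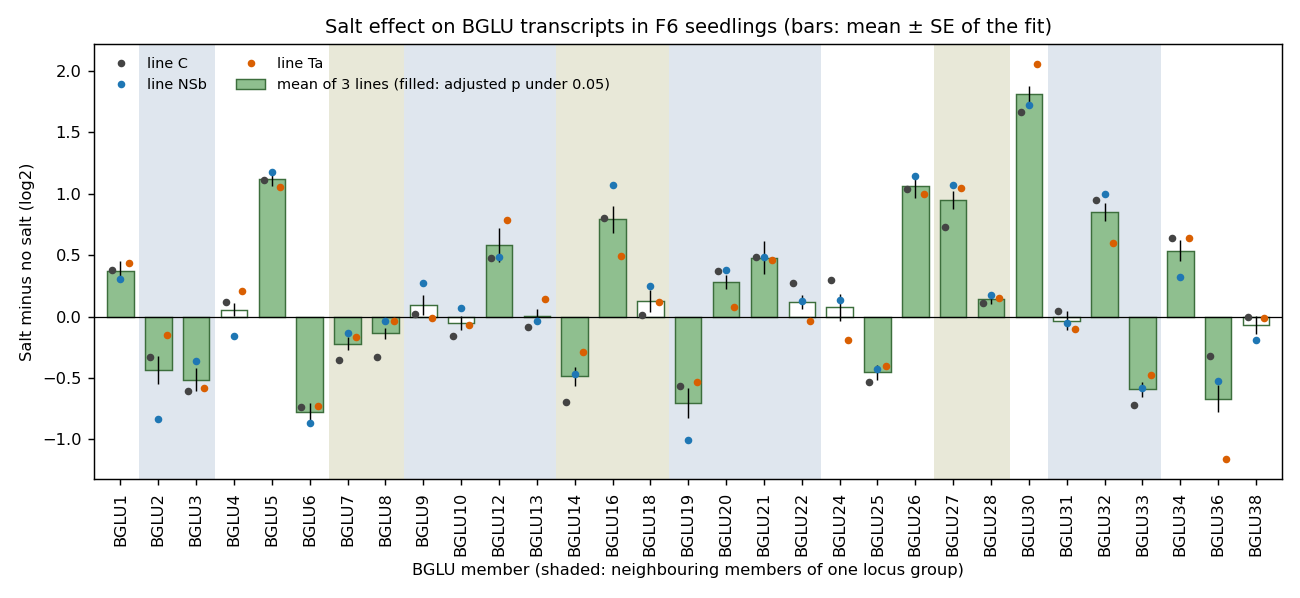
Salt minus no salt (log2, vertical axis) of each BGLU member in F6, as the mean of the 3 lines with the standard error of the fit (bars, filled where adjusted p was under 0.05) and in each line (points), with neighbouring members of a locus group on shaded ground. BGLU30 stands at 1.82, and the tallest bar below 0 is BGLU6 at -0.78.

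Within single lines the counts were lower. In C, 8 members were higher and 7 lower (5.14% and 4.54% of all probe sets). In NSb, 7 were higher and 6 lower (9.34% and 6.09%), and in Ta 7 were higher and 5 lower (6.26% and 4.24%). The shares were larger among the 24080 probe sets with 1 gene. Of these, 2048 were higher and 2055 lower in C, 3322 and 2366 in NSb, and 2436 and 1754 in Ta. In each line on its own, and in 1 direction, 8 members passed (5.16% of probe sets did so), namely BGLU5, BGLU26, BGLU27, BGLU30 and BGLU32 as higher and BGLU6, BGLU25 and BGLU33 as lower. With a fold of at least 3 as a further demand, BGLU30 alone was called in any line, where 0.819% of probe sets were. The test of a difference in salt response between lines called 0 members and almost no probe sets at all (0.00546%). Of the 93 tests of members, 11 had an unadjusted p under 0.05 in limma (7.16% over all probe sets). The smallest adjusted p among them, 0.574, belonged to BGLU36.

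BGLU30 had the strongest response to salt. Without salt its pools read 6.97, 7.30 and 7.42 in C, 7.40, 7.26 and 7.41 in NSb and 6.95, 6.87 and 6.84 in Ta. Under salt they read 8.92, 8.99 and 8.76 in C, 8.94, 9.25 and 9.05 in NSb and 8.94, 8.84 and 9.07 in Ta. Every salt pool of BGLU30 lay above every unstressed pool by more than 1 log2 unit. The rise was 1.82 ± 0.07 log2 on average (SE of the fit), or 3.52-fold, with an adjusted p of 1.57e-11. By line it was 1.66 in C, 1.72 in NSb and 2.06 in Ta. The larger value in Ta came with lower unstressed pools, and its excess over C, 0.40 ± 0.16 log2, did not pass the test (adjusted p = 0.662).

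All 9 salt pools lay above all 9 unstressed pools of F6 in 5 members (3.89% of probe sets), which besides BGLU30 were BGLU5, BGLU26, BGLU27 and BGLU32. BGLU26, whose protein prefers mannosides to glucosides, had unstressed signals of 3.61 to 4.09 (median 3.98), under the array medians. Its salt pools reached 4.42 to 5.26 (median 5.09). The rise of BGLU26 was 1.06 ± 0.09 log2 (2.09-fold, adjusted p = 3.51e-07). It was thus below the array medians without salt and above them in each salt pool.

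BGLU5 gave 4.95 to 5.20 without salt (median 5.10) and 5.98 to 6.36 with it (median 6.17). Its rise of 1.12 ± 0.06 log2 was much the same in each line, at 1.12 in C, 1.18 in NSb and 1.06 in Ta (adjusted p of the mean 6.47e-10). BGLU27 went from 7.25 to 7.97 (median 7.52) to 8.29 to 8.65 (median 8.47), a rise of 0.95 ± 0.07 log2 with an adjusted p of 1.25e-07. No enzyme role is given here for either gene. BGLU32, with 5.22 to 5.77 without salt and 6.15 to 6.66 under it (medians 5.57 and 6.45), rose by 0.85 ± 0.07 log2 (adjusted p = 2.65e-07).

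**Figure D2:**
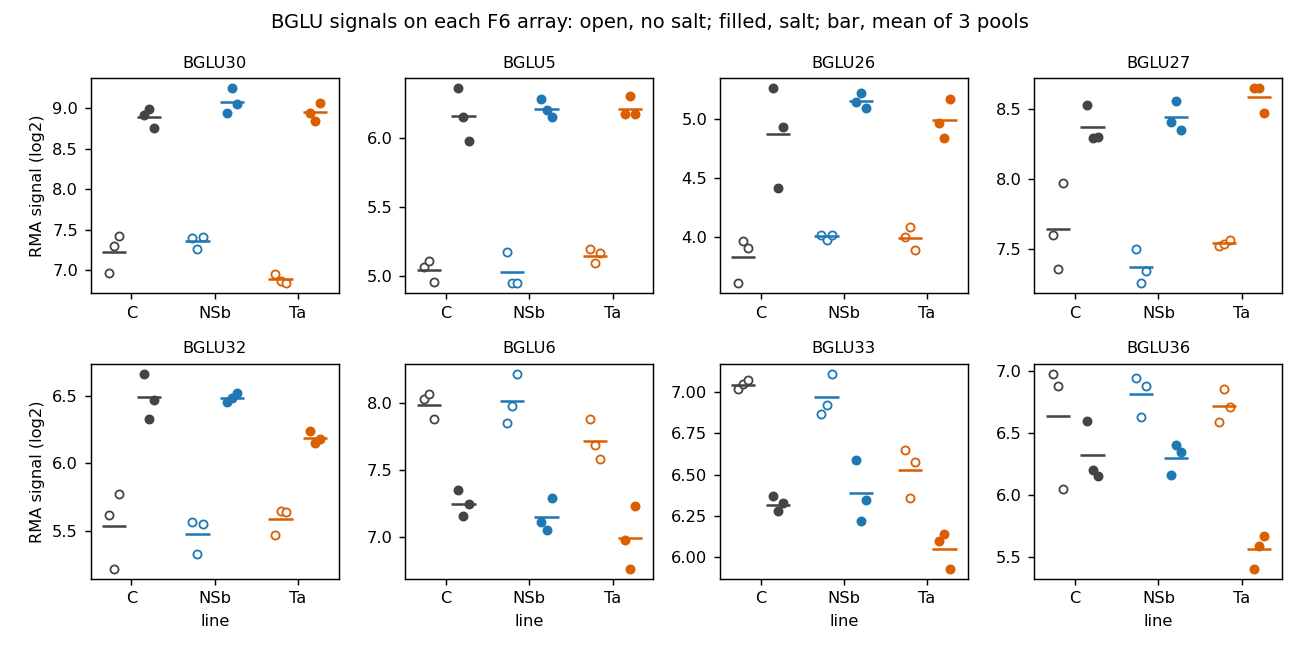
Signals (log2, vertical axis) of 8 BGLU members in each pool of F6, by line, with open points for no salt, filled points for salt and bars for the mean of 3 pools. Salt and unstressed pools are fully apart for BGLU30, BGLU5, BGLU26, BGLU27, BGLU32 and BGLU6, while BGLU36 overlaps in C, where 1 unstressed pool reads 6.05.

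The members that act on hormone conjugates did not move as 1 group. BGLU6, which releases gibberellin and abscisic acid from their glucose esters in enzyme assays, fell. Its unstressed pools read 7.58 to 8.22 (median 7.88) and its salt pools 6.76 to 7.35 (median 7.16). BGLU6 was the only member with all 9 salt pools below all 9 others (2.47% of probe sets), and it fell by 0.78 ± 0.07 log2 (1.71-fold, adjusted p = 8.95e-07). BGLU12, which releases the jasmonate derivative tuberonic acid from its glucoside, rose instead, by 0.58 ± 0.14 log2 (adjusted p = 0.00398). Its unstressed pools in C were 6.74, 6.80 and 7.93, against 7.88, 7.37 and 7.66 under salt. The third unstressed C pool thus lay above all C salt pools, and without it the mean rise of BGLU12 over lines was 0.71 log2 (adjusted p = 6.5e-06). In NSb and Ta all salt pools of BGLU12 lay above all unstressed ones. BGLU13, its neighbour and a second tuberonic acid glucoside hydrolase, stayed between 7.18 and 7.56 in all 18 pools, with a salt difference of 0.01 log2 (adjusted p = 0.945).

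The 3 members known for splitting monolignol glucosides, the stored form of lignin precursors, also parted. BGLU16 gave 3.86 to 4.89 without salt (median 4.20) and 4.40 to 5.43 with it (median 5.29), and within each line its salt pools were above the unstressed ones. It rose by 0.79 ± 0.11 log2 on average (adjusted p = 4.21e-05) and by 0.69 without the third C pool (adjusted p = 6.86e-07). BGLU14 fell by 0.49 ± 0.08 log2 (adjusted p = 0.000201), but its signals of 2.93 to 4.08 lay under the median of every array. For BGLU18 the difference was 0.13 log2 (adjusted p = 0.358).

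Among genes of the pathway that makes those precursors (phenylalanine ammonia-lyase, 4-coumarate ligase, cinnamyl alcohol dehydrogenase and cinnamoyl reductase names), 0 of 13 were higher under salt and 9 were lower, with a median of -0.38 log2. The lowest was 4CL2, a 4-coumarate ligase, at -0.75. Of 12 endo-glucanases, which cut cell wall chains within their length, 1 was higher (GLU15, by 0.98 log2) and 4 were lower. Over all probe sets 15.2% were higher and 11.7% lower, and over those with 1 gene 39.8% were called in either direction. Neither list was tested as a set.

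BGLU7, whose enzyme splits short glucose chains of the cell wall, fell by 0.22 ± 0.05 log2 (adjusted p = 0.0037), and its neighbour BGLU8 by 0.14 ± 0.04 (adjusted p = 0.0331). Both were called in C alone among single lines. The call of BGLU8 on average was lost without the second or the third unstressed C pool, without several other single pools and with all 45 arrays in 1 fit. BGLU36, the rice counterpart of SFR2, which in Arabidopsis rebuilds galactolipids of the chloroplast envelope upon freezing, fell by 0.67 ± 0.11 log2 (adjusted p = 0.000276). In Ta its pools went from 6.59, 6.86 and 6.71 to 5.40, 5.59 and 5.67. In NSb they went from 6.95, 6.63 and 6.88 to 6.16, 6.40 and 6.35, and in C from 6.98, 6.88 and 6.05 to 6.60, 6.20 and 6.15. All Ta and NSb salt pools of BGLU36 were below the unstressed ones, whereas those of C overlapped. The fall was 1.16 log2 in Ta and called there, and the differences were -0.52 in NSb (adjusted p = 0.0857) and -0.32 in C (0.398). The difference between Ta and C in response, -0.84 log2, did not pass (adjusted p = 0.574). Without the third C pool the fall of BGLU36 in C was 0.62 log2 and called (adjusted p = 0.0111), that in NSb passed as well (0.011), the mean fall was 0.77, and the difference between Ta and C shrank to -0.55 (0.663).

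BGLU31, a transglucosidase that passes glucose between phenolic acids and hormones, showed no salt difference that passed the test. Its pools without salt read 8.11, 8.18 and 7.56 in C, 8.06, 7.93 and 7.96 in NSb and 7.71, 7.73 and 7.60 in Ta. Under salt they read 8.15, 7.83 and 8.02 in C, 7.93, 7.95 and 7.93 in NSb and 7.69, 7.57 and 7.49 in Ta. The mean difference of BGLU31 was -0.03 ± 0.08 log2 (adjusted p = 0.799), and -0.10 without the third C pool (0.194). The 2 genes that follow it on chromosome 9 did respond, and in opposite directions, for BGLU32 rose (above) and BGLU33 fell. BGLU33 pools gave 6.36 to 7.11 without salt (median 6.92) and 5.93 to 6.59 under it (median 6.28). Within each line no salt pool of BGLU33 reached an unstressed one, and the fall was 0.59 ± 0.06 log2 (adjusted p = 2.14e-06).

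In the order of genes of the rice RefSeq assembly ASM3414082v1, 20 members form 7 groups, taken as members no more than 100000 bases apart. In 3 of these groups (BGLU14, BGLU16 and BGLU18, then BGLU19 to BGLU22, then BGLU31 to BGLU33) called members went both ways, and in 4 they went 1 way. How often neighbouring genes outside the family go both ways was not computed, so these counts only describe the groups. BGLU14, BGLU20 and BGLU21, which made up 1 side of this in the first 2 groups, had low signals, and with a filter on low values that removes them only BGLU31 to BGLU33 went both ways. BGLU19 fell by 0.70 ± 0.12 log2 (adjusted p = 0.000379), from 5.02 to 6.19 (median 5.78) without salt to 4.53 to 5.26 (median 4.95) with it. Within lines its pools overlapped in C only, where the third unstressed pool read 5.02, and without that pool the mean fall was 0.81 log2 (adjusted p = 2.43e-06). Next to it BGLU20 rose by 0.28 and BGLU21 by 0.48 log2 (adjusted p = 0.00137 and 0.0146), both at signals under 4, and BGLU22 differed by 0.12 (0.152). Where neighbours went the same way they could still differ in size, as BGLU28 rose by 0.14 ± 0.05 log2 (adjusted p = 0.0288) beside the 0.95 of BGLU27. The call of BGLU28 was lost without the first or the third unstressed C pool, without several other single pools and with arrays centred on their medians. BGLU2 and BGLU3 fell by 0.44 and 0.52 log2 on average (adjusted p = 0.00853 and 0.000557). BGLU2 lay near the array medians of F6, at 4.05 to 4.83 without salt and 3.52 to 4.39 with it. BGLU3 lay under them, at 2.98 to 3.84 and 2.59 to 3.13, and the filter on low values removed it. Among single lines BGLU2 was called in NSb only and BGLU3 in C and Ta only. The limma test of a difference in salt response between lines passed for neither (smallest adjusted p = 0.678 for BGLU2 and 0.817 for BGLU3). Whether probes of 1 member also bind transcripts of its close relatives was not tested.

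Of the remaining members BGLU34 rose by 0.54 ± 0.09 log2 (adjusted p = 0.000175), from 5.81 to 6.36 (median 6.14) to 6.22 to 6.79 (median 6.68), with overlap in NSb only. BGLU25 fell by 0.46 ± 0.06 log2 (adjusted p = 4.02e-05) and did so without overlap in every line, from 6.69 to 7.10 (median 6.96) to 6.10 to 6.82 (median 6.45). BGLU1 rose by 0.37 ± 0.08 log2 on average (adjusted p = 0.00237), although it was called in no single line. Its unstressed pools were 6.75, 6.68 and 6.14 in C, 6.54, 6.48 and 6.48 in NSb and 6.47, 6.19 and 6.51 in Ta. Under salt BGLU1 read 6.70 to 7.01 in C, 6.72, 6.87 and 6.83 in NSb and 6.88, 6.89 and 6.71 in Ta. The pools were apart in NSb and Ta and overlapped narrowly in C. Without the third C pool the mean rise of BGLU1 was 0.31 log2 (adjusted p = 0.00132), and it was then called in Ta (0.0117). BGLU4, BGLU9, BGLU10, BGLU24 and BGLU38, like BGLU13, BGLU18, BGLU22 and BGLU31, were not called. BGLU24 differed by 0.08 log2 with the third C pool and by 0.02 without it (adjusted p = 0.671 and 0.921).

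Beside these changes most root markers were called for salt, in both directions, and most shoot markers were not. The counts that follow stand beside 15.2% of all probe sets higher and 11.7% lower, and 39.8% called in either direction among those with 1 gene. Of 9 root markers 2 were higher and 5 lower. Among the lower were NRT2.1 at -3.35 and NAR2.1 at -2.65 log2, both of nitrate uptake. The higher ones were Lsi1, a silicon channel of roots, by 0.30, and an ammonium transporter by 0.43. The summed signal of the root list was 10.96 to 11.41 (log2) without salt and 10.51 to 10.77 with it. Of 5 shoot markers 0 were higher and 1 was lower (rca, the Rubisco activase, by 0.26), and their summed signal was 12.02 to 12.26 without salt and 11.86 to 12.13 with it. No marker of either list was chosen for its independence from salt, and the part of root and shoot shares in the salt differences was not tested.

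BGLU9 pools of the negative segregant lay above those of the other lines in every setting. In F4 it read 6.57, 6.36 and 6.16 in C, 6.26, 6.24 and 6.29 in Ta and 7.14, 6.85 and 7.21 in NSb. In F6 without salt it read 5.35, 5.45 and 5.80 in C, 5.37, 5.77 and 5.57 in Ta and 6.72, 6.39 and 6.55 in NSb. In F8 the pools were at 6.72, 6.75 and 6.51 in C, 6.64, 6.44 and 6.57 in Ta and 7.71, 7.81 and 7.90 in NSb. All NSb pools thus lay above all C and Ta pools of the same generation. Under salt NSb stood at 6.78, 6.94 and 6.76, against 5.77, 5.48 and 5.42 in C and 5.71, 5.55 and 5.40 in Ta. With salt history in F8, BGLU9 gave 7.39, 7.62 and 7.77 in NSb, 6.82, 6.63 and 6.41 in C and 6.56, 6.45 and 6.32 in Ta. Again no NSb pool met a pool of the other lines, and in all 5 settings Ta overlapped with C. The share of all probe sets whose pools part in this way was not computed. BGLU9 is described because it was called between lines, so the lack of overlap adds no support to those calls.

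**Figure D3:**
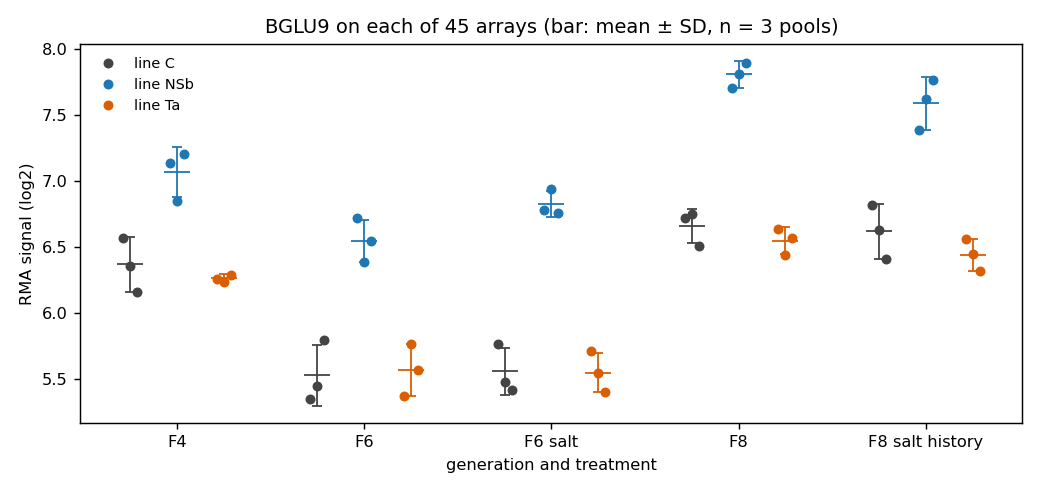
BGLU9 signal (log2, vertical axis) in each of the 45 pools by generation, treatment and line, with bars for mean ± SD (n = 3 pools). In each of the 5 settings the 3 NSb pools lie above all C and Ta pools, for example at 7.71 to 7.90 in F8 where C and Ta reach at most 6.75.

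BGLU9 exceeded C in NSb by 0.70 ± 0.13 log2 in F4 (adjusted p = 0.0458), by 1.02 ± 0.15 in F6 (0.109, not called), by 1.27 ± 0.14 in F6 under salt (0.000409), by 1.15 ± 0.10 in F8 (0.00394) and by 0.97 ± 0.12 in F8 with salt history (0.00141). Against NSb, Ta was lower by 1.27 log2 under salt in F6 (adjusted p = 0.000401), by 1.26 in F8 (0.00145) and by 1.15 with salt history (0.000138), while -0.80 in F4 and -0.98 in F6 did not pass (0.112 and 0.119). The 2 sets of values share the NSb pools. Averaged over the 3 generations without salt, an estimate added after the line comparisons had been seen, BGLU9 was 0.96 ± 0.08 log2 higher in NSb than in C (1.94-fold, adjusted p = 6.73e-08), and it was the only member so called (0.563% of probe sets). The gap of F8 exceeded that of F4 by 0.45 ± 0.19 log2, which was not called (adjusted p = 0.482). Salt itself left BGLU9 at 0.09 ± 0.08 log2 (adjusted p = 0.453).

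No gene measured around BGLU9 was called for such a gap on average, but only 0.563% of all probe sets were. The absence of calls among so few neighbours therefore cannot show whether the gap is confined to BGLU9. Of the 10 genes on each side of it in the reference order, 8 have probe sets, 11 in number. Their NSb minus C differences averaged over generations ran from -0.14 to 0.15 log2, with 0 called in limma and 2 with an unadjusted p under 0.05. The share of all probe sets under that unadjusted threshold was not computed for this comparison. By generation single probe sets varied more, as 1 of LOC9268348 read 0.80 in F4 (adjusted p = 0.0836) and -0.63 in F6 (0.391), neither called. The 11 include the family members BGLU10 (-0.03), BGLU12 (-0.07) and BGLU13 (0.03). A long non-coding RNA is annotated across BGLU9 in the reference and has no probe set paired with it here, so signal from that transcript could not be separated.

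Few other members were called between lines with all pools kept. In F4, 2 members were called in at least 1 of the 3 line comparisons (1.14% of probe sets), BGLU9 and BGLU1. BGLU1 read 5.91, 5.79 and 5.56 in C, 5.97, 6.20 and 5.86 in Ta and 6.42, 6.47 and 6.35 in NSb. The NSb pools were the highest, by 0.66 ± 0.12 log2 over C (adjusted p = 0.0426). In F8, without salt, BGLU1 was 6.56 to 6.69 in C and 6.40 to 6.59 in NSb, a difference of -0.10 (adjusted p = 0.905). The change of its NSb gap from F4 to F8 was -0.76 log2 (adjusted p = 0.0903), and 0 members passed that test for Ta or NSb (0.774% of probe sets), with 8 of 62 tests at an unadjusted p under 0.05 (8.94% over all probe sets). Each of the F4 calls, of BGLU1 and of BGLU9, was lost in 8 of the 9 fits that left out 1 pool.

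In F6 without salt 0 members were called between lines (0.0710% of probe sets), with 16 of 93 tests at an unadjusted p under 0.05 in limma (8.15% over all probe sets). BGLU9 and BGLU16 passed when the third C pool was left out, where 0.461% of probe sets did. Under salt in F6 BGLU9 alone was called (0.506%). Without the third unstressed C pool, 6 members were called under salt (1.62% of probe sets), namely BGLU8, BGLU9, BGLU16, BGLU22, BGLU31 and BGLU36. That pool is not among those compared, so the differences stayed the same and only the shared estimate of the spread changed. BGLU16 under salt read 4.66, 4.40 and 4.58 in Ta and 5.29, 5.43 and 5.32 in C. Its Ta minus C difference was -0.80 log2 in both fits, with adjusted p = 0.0862 in limma with all pools and 0.00122 without that pool. In F8 BGLU9 alone was called (0.632%).

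BGLU30 was lower in Ta than in C when the generations were averaged. Without salt BGLU30 read 6.84, 6.64 and 6.79 in C and 6.20, 6.53 and 6.72 in Ta in F4, where the pools overlapped. In F8 it read 7.06, 7.28 and 7.47 in C, 7.27, 7.22 and 6.99 in NSb and 6.53, 6.66 and 6.56 in Ta. All Ta pools were below all C pools in F6, in F8 and in F8 with salt history, where Ta gave 6.47, 6.76 and 6.55 and C 7.07, 7.62 and 7.09. The share of all probe sets whose pools part in this way between lines was not computed, for BGLU30 or any other member. The differences from C were -0.27 log2 in F4, -0.34 in F6 and -0.69 in F8 (adjusted p = 0.499, 0.569 and 0.0534), and none was called alone. Averaged over the 3 generations BGLU30 was lower in Ta by 0.43 ± 0.08 log2 (1.35-fold, adjusted p = 0.00381), again in an estimate added after the line comparisons had been seen. It was the only member so called (1.49% of probe sets). Under salt the difference of BGLU30 was 0.06 ± 0.12 log2 (adjusted p = 0.925), and the Ta pools overlapped with those of C.

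**Figure D4:**
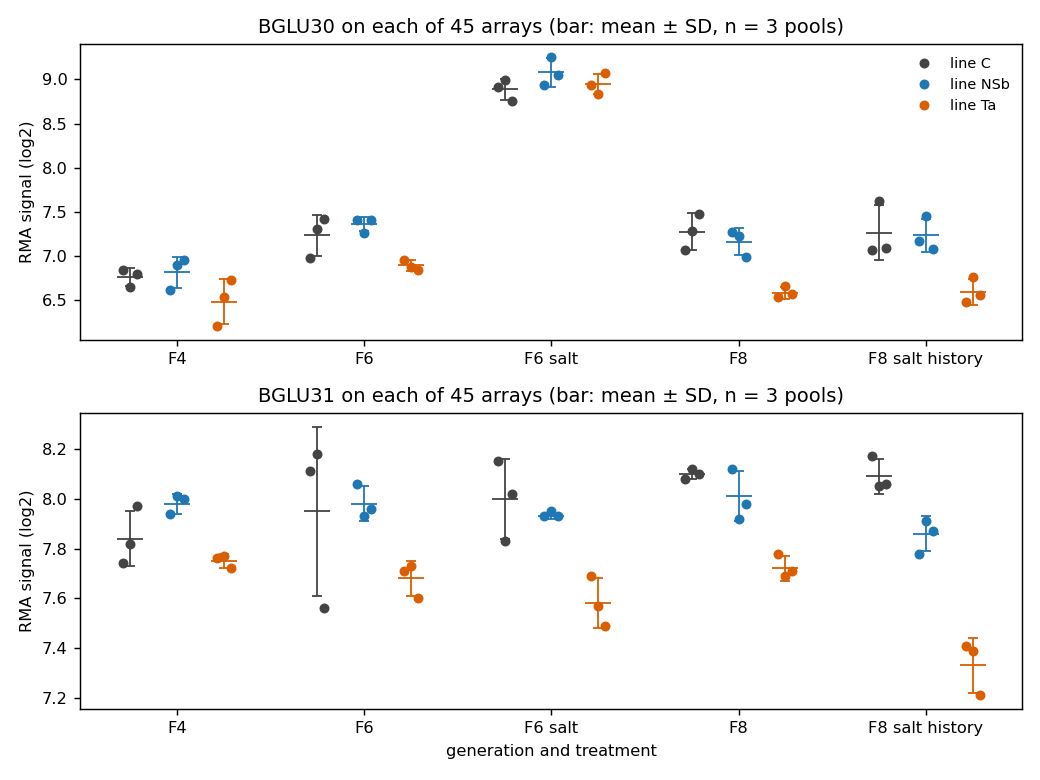
BGLU30 and BGLU31 signals (log2, vertical axis) in each of the 45 pools by generation, treatment and line, with bars for mean ± SD (n = 3 pools). Ta pools of BGLU30 lie under the C pools in F6, F8 and F8 salt history but not under salt, and those of BGLU31 fall to 7.21 in F8 with salt history.

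Among F8 seedlings with salt history, a comparison of lines also added after the others had been seen, 3 members differed between lines (0.894% of probe sets). Besides BGLU9 these were BGLU31 and BGLU4. BGLU31 read 8.17, 8.05 and 8.06 in C, 7.78, 7.91 and 7.87 in NSb and 7.41, 7.39 and 7.21 in Ta. Ta was below both other lines without overlap, by 0.76 ± 0.08 log2 against C (adjusted p = 8.22e-05) and by 0.52 ± 0.08 against NSb (0.00421). The NSb pools also lay below all C pools, though that difference was not called. In F8 without salt history BGLU31 was at 8.08, 8.12 and 8.10 in C and 7.78, 7.69 and 7.71 in Ta. The pools were apart there too, and the difference of -0.37 did not pass (adjusted p = 0.126). In F4 the pools of BGLU31, at 7.74, 7.82 and 7.97 in C and 7.76, 7.77 and 7.72 in Ta, overlapped. The Ta minus C difference of BGLU31 was -0.27 log2 in F6 (adjusted p = 0.736), -0.42 in F6 under salt (0.204) and -0.25 over the 3 generations (0.0521), none of them called. BGLU4 gave 7.38, 7.31 and 7.46 in C and 6.88, 6.91 and 7.08 in Ta with salt history, a difference of -0.43 ± 0.08 log2 (adjusted p = 0.0268). Its pools did not overlap, but the call was lost without any 1 of the 3 C pools with salt history or without the first or the second such Ta pool.

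Salt history itself called 0 members in any line (0.0346% of probe sets), with 13 of 93 tests at an unadjusted p under 0.05 in limma (6.40% over all probe sets) and differences from -0.40 to 0.50 log2. The smallest adjusted p was 0.112, for BGLU31 in Ta, at -0.39 ± 0.08 log2. BGLU30, the strongest responder to salt in F6, read 6.53 to 6.66 in Ta, 6.99 to 7.27 in NSb and 7.06 to 7.47 in C without salt history, and 6.47 to 6.76, 7.08 to 7.45 and 7.07 to 7.62 with it.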

How the data were processed

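RNA of 45 pools of rice seedlings was hybridised to 1 array each. The deposited log2 values had been obtained by the authors with RMA (background correction, normalisation and summary per probe set) in Affymetrix Expression Console, whose versions are not given in the sources used here. They run from 0.649 to 12.944 for 54922 probe sets and were used as they are. Medians of arrays changed with the generation, so each generation may have been normalised on its own. The array annotation and the rice RefSeq table pair 24080 probe sets with 1 gene, 95 with several and 30747 with none, and 4714 repeat the values of an earlier probe set, none of them a BGLU member.

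Groups were taken from the sample titles. The software was R 4.3.3 (limma 3.58.1 and, for tables, data.table version 1.17.8) and Python 3.11.15 (numpy 2.4.6, pandas 2.3.3, matplotlib 3.10.9). Models contained only the group means, variances were moderated, tests were 2-sided, and p-values were adjusted by Benjamini-Hochberg across all 54922 probe sets. Salt was fitted on the 18 arrays of F6, lines on the 9 unstressed arrays of each generation, salt history on the 18 arrays of F8, and the average over generations and the change from F4 to F8 on 27 unstressed arrays. The study's 3-fold minimum was an alternative, not a condition. Standard errors are those of the fits, SDs those of 3 pools. The fit was tested on simulated data with independent noise and differences larger than almost all BGLU differences called here. That test therefore does not bear on calls of smaller size.

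Members, lists and tests were chosen with earlier results of these data known. Values in every pool are given for BGLU1, BGLU30 and BGLU31, for members called between lines, and as ranges or pools for up to 12 members with the largest called salt difference, and BGLU25 and BGLU4 were named after their values were seen. Lists of glycosyltransferases (UGT names) and beta-galactosidases (BGAL names) matched 0 probe sets, and a growth factor gene that shares the name PT2 was left out of the root markers. Promoters and proteins were not analysed here. Alternatives were a 3-fold minimum, the 10% of probe sets with the highest SD, a filter on low values, centred arrays, robust variances with an intensity trend, 1 fit of all 45 arrays, fits restricted to the compared groups, a replicate block, identical probe sets counted once and each array left out in turn. The number of arrays limits the precision. Pools are labelled as biological replicates.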

Additional observations from a re-analysis of the deposited data

Results flagged for a closer look

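BGLU33 gave differences of opposite sign with salt history in C and NSb of F8. In C its pools were 7.37, 7.33 and 7.43 without and 7.44, 7.78 and 7.67 with salt history, a difference of 0.26 log2. In NSb they were 7.76, 7.84 and 7.83 without and 7.50, 7.66 and 7.51 with it, a difference of -0.25. In Ta the difference was 0.21 (adjusted p = 0.694), with the sign of C. BGLU33 was picked from all members by a search for pools apart in opposite directions in different lines. The lack of overlap within C and within NSb is therefore no support for a difference. Neither difference was called in limma (adjusted p = 0.902 in C and 0.7 in NSb), and the difference between the lines was not tested.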

How the results depend on the processing

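Salt counts of BGLU members were 15 in C, 13 in NSb, 12 in Ta and 22 on average, line counts 2 in F4, 0 in F6, 1 in F8, 1 in F6 under salt and 3 in F8 with salt history, and the salt history count 0. With a fold of at least 3, each salt count became 1 (BGLU30) and the line counts of F4, F8, F6 under salt and F8 with salt history became 0. Among the 10% of probe sets with the highest SD the counts were 7 in C, 8 in NSb, 10 on average, 0 in F4, 0 in F8 and 1 with salt history. A filter on low values gave 2 in F8, 3 in F6 under salt and 5 with salt history, centred arrays 5 with salt history, the intensity trend 2 in F8, and identical probe sets counted once 2 in F8 and 5 with salt history. With only the 2 groups compared the counts were 5 for salt in C, 0 in F4 and 1 with salt history, and this setting has no value for the average. With all 45 arrays in 1 fit they were 4 in F4, 3 in F6, 5 in F8, 5 in F6 under salt and 5 with salt history. The cause of these changes was not tested. Leaving out 1 array gave 11 to 16 members for salt in C, 10 to 15 in NSb, 8 to 15 in Ta and 20 to 22 on average, 0 to 1 between lines in F4, 0 to 2 in F6, 1 to 2 in F8, 1 to 6 in F6 under salt, and 2 to 5 with salt history. The 6 came without the third unstressed C pool of F6, the 5 without the second F8 Ta pool, and the 2 in F8 without the first C pool, which added BGLU30. A replicate block gave 0 in F4 and changed no other count by over 1.5 times. Replicate numbers did not pair the pools, as 4 of 36 same-number pairs correlated above 0.1 (r from -0.133 to 0.251). Of 512 values for 22 results on named genes, 492 kept direction and side of the threshold, 20 fell under it (BGLU1 and BGLU9 in F4, 10 of 16 alternatives each) and 0 reversed. Signals near the array medians and 3 pools a condition limit what can be called.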
